A study of Homo sapiens with 8 samples.

Results

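The genes examined here are 43 interferon response and antigen presentation genes, chosen by name from a fixed list and found by symbol in the count tables of both cell lines, out of 58828 genes listed there. All 43 symbols were present, and the rule itself uses no measured value. RNA-seq covered a pair of established lines of human prostate cancer, 22RV1 and DU145. Each line had been transduced with a lentiviral TetOne vector, either empty (vector cells) or carrying HA-tagged PAGE4 (PAGE4 cells). All transduced cells were selected with puromycin, kept on it and given doxycycline before analysis. The controls therefore carried the virus and received doxycycline as well. PAGE4 is a cancer testis antigen that the study overexpressed to ask how it acts under oxidative stress. Cells were given PBS or, per the labels, 200 mM H2O2 for 12 h before collection. The study gives a lower H2O2 dose in another place, so the dose is uncertain. Every one of the 8 conditions was sequenced as 1 library, and a difference between a single pair of conditions therefore has no replicate check. Each line with each construct is 1 transduced population, so the effect of PAGE4 and any other difference between the vector and PAGE4 populations cannot be told apart.

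Interferons are cytokines that cells release when sensors such as RIG-I (encoded by DDX58) and MDA5 (IFIH1) detect viral RNA. Their receptors act through JAK kinases on STAT proteins such as STAT2, which joins IRF9 in a complex that binds interferon-stimulated response elements (ISREs) in the promoters of antiviral genes. IRF1 and IRF7 bind related elements, and interferon-γ acts on a separate element, the gamma-activated site. The same signals raise class I antigen presentation, in which TAP1 and TAP2 carry peptides into the endoplasmic reticulum, TAPBP (tapasin) helps to load them, and HLA heavy chains with B2M display them to T cells and natural killer cells.

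The promoters of these genes are shown first. The choice of names read no promoter sequence, but it took genes of a response that acts through ISREs. A high share with ISRE letters is therefore no independent finding. RefSeq promoter windows on GRCh38.p14 were matched for 34 of the 43 genes, DDX58 under its newer symbol. The 250 bases upstream of each start were searched on both strands for the core letters of the ISRE, which are GAAA, any 2 bases and GAAA again (TTTC, 2 bases and TTTC on the other strand). This run of letters was present for 23 of the 34 genes (67.6%), against 3.71% of the 27305 genes with a window, and overlapping matches were counted once per gene. The gamma-activated site letters TTC, any 3 bases and GAA, which read the same on both strands, were found for 9 of the 34 genes, against 8.09% of all genes. The stretches below end at the base before the annotated start and have the matched letters in capitals. They are shown for genes that fell with H2O2 in both lines (IFIT1, OAS3, PARP9) or in DU145 cells (TAPBP), for one that rose in both (ISG20), for the most abundant transcripts (ISG15, B2M) and for IRF1, where the capitals mark the gamma-activated site letters instead.
IFIT1, chr10:89392473-89392622, plus strand: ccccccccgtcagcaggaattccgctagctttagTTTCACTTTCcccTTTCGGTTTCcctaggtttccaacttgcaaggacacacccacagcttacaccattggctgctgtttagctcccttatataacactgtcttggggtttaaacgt
OAS3, chr12:112938324-112938473, plus strand: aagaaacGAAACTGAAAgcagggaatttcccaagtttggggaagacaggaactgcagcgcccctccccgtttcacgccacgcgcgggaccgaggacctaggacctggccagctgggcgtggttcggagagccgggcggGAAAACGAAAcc
PARP9, chr3:122564301-122564360, minus strand: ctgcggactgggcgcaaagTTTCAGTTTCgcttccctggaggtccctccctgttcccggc
TAPBP, chr6:33314079-33314138, minus strand: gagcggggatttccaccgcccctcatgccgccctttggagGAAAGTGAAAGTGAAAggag
ISG20, chr15:88638896-88639015, plus strand: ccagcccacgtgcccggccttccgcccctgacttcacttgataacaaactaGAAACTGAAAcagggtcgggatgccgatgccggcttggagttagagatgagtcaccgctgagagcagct
ISG15, chr1:1013347-1013496, plus strand: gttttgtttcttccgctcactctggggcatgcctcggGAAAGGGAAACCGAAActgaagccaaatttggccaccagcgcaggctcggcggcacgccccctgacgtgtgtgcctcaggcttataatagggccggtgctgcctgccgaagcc
B2M, chr15:44711367-44711516, plus strand: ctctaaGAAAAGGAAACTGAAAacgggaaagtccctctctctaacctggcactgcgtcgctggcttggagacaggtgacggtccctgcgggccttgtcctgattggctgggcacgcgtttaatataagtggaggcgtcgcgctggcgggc
IRF1, chr5:132490774-132490923, minus strand: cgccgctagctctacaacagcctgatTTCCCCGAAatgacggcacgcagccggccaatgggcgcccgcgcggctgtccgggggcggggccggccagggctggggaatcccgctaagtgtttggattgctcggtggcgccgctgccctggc
IFIT1 holds 2 separate matches and OAS3 holds 2, while the matches of ISG15, B2M and TAPBP each run into a second one. PARP9 and DTX3L face away from each other on chromosome 3, and the single match between them, at 122564332 to 122564341, lies within the window of PARP9 and across the start of DTX3L. No match to the ISRE letters was found upstream of STAT2, IRF1, IRF9, DDX58, OAS1, IFI35, HERC6, HLA-B, HLA-C or TRIM21. A match is a run of letters and was not tested as a binding site.

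Total counts ranged from 25482984 to 43310401 per library. PAGE4 had 0 or 1 read in the 4 vector libraries and 1001 to 1489 reads in the 4 PAGE4 libraries. KLK3, KLK2, FOLH1 and TMPRSS2, markers of luminal prostate cells, were at or under the floor of 3 reads in DU145 cells. In 22RV1 cells all 4 were lower with H2O2 in both pairs, and KLK3, which encodes prostate-specific antigen, had 715 and 751 normalized counts with PBS and 115 and 216 with H2O2. The 5 markers expected in DU145 cells summed to 6681 to 10185 in 22RV1 cells and 21072 to 26025 in DU145 cells, a sum carried mainly by VIM, while CD44 was not called between the lines and LGALS1 was higher in 22RV1 cells. What part these changes had in the results below was not tested. Of the leukocyte and antigen presenting cell markers, CD3E was at or under the floor in both lines and HLA-DRA in DU145 cells, while HLA-DRB1 had 0.701, 4.84, 7.8 and 4.42 normalized counts in 22RV1 cells and 90.1, 74, 56.5 and 34.8 in DU145 cells, from vector cells with PBS and H2O2 and then PAGE4 cells with PBS and H2O2. In such bulk samples fewer cells of a kind and less RNA per cell cannot be told apart. The stress gene HMOX1 had 106 and 189.5 normalized counts in 22RV1 vector and PAGE4 cells with PBS and 4244 and 2207 with H2O2. In DU145 cells it had 2713 and 2672 against 3737 and 3162.

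Levels are given as normalized counts, that is, read counts divided by a TMM size factor whose geometric mean over the 8 libraries is 1. Where 2 values are given for a line and treatment, the first is from vector cells and the second from PAGE4 cells, and 4 values for a line are from vector cells with PBS and H2O2 and then PAGE4 cells with PBS and H2O2. Of the 43 genes, 39 passed the filter on low counts, and the other 4 (OAS2, IFI44L, IFITM1 and CXCL10) had between 0 and 14 reads in every library. The 10 interferon genes examined as ligands, among them IFNB1, IFNG and IFNL1, had between 0 and 22 reads in every library, and IFNE alone passed the filter. Per length, in RPKM, which divides by exon length and library size, the highest mean level in 22RV1 cells was that of ISG15, a ubiquitin-like modifier, at 139, followed by B2M at 39.8 and HLA-C at 30.6. In DU145 cells B2M was highest at 73.2 RPKM, followed by HLA-C at 48.3, HLA-E at 47.4 and ISG15 at 30.7. The classical antiviral effectors were far lower: IFIT1 was at 0.0309 and 2.08 RPKM and MX1 at 0.155 and 0.209 in 22RV1 and DU145 cells. Reads of the HLA genes, of IFITM1, IFITM2 and IFITM3, and of USP18 can fall on near-identical copies, so their counts are less certain. The library preparation is not stated to keep strand, and reads of PARP9 and DTX3L and of other overlapping genes could be mixed.

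**Figure D1:**
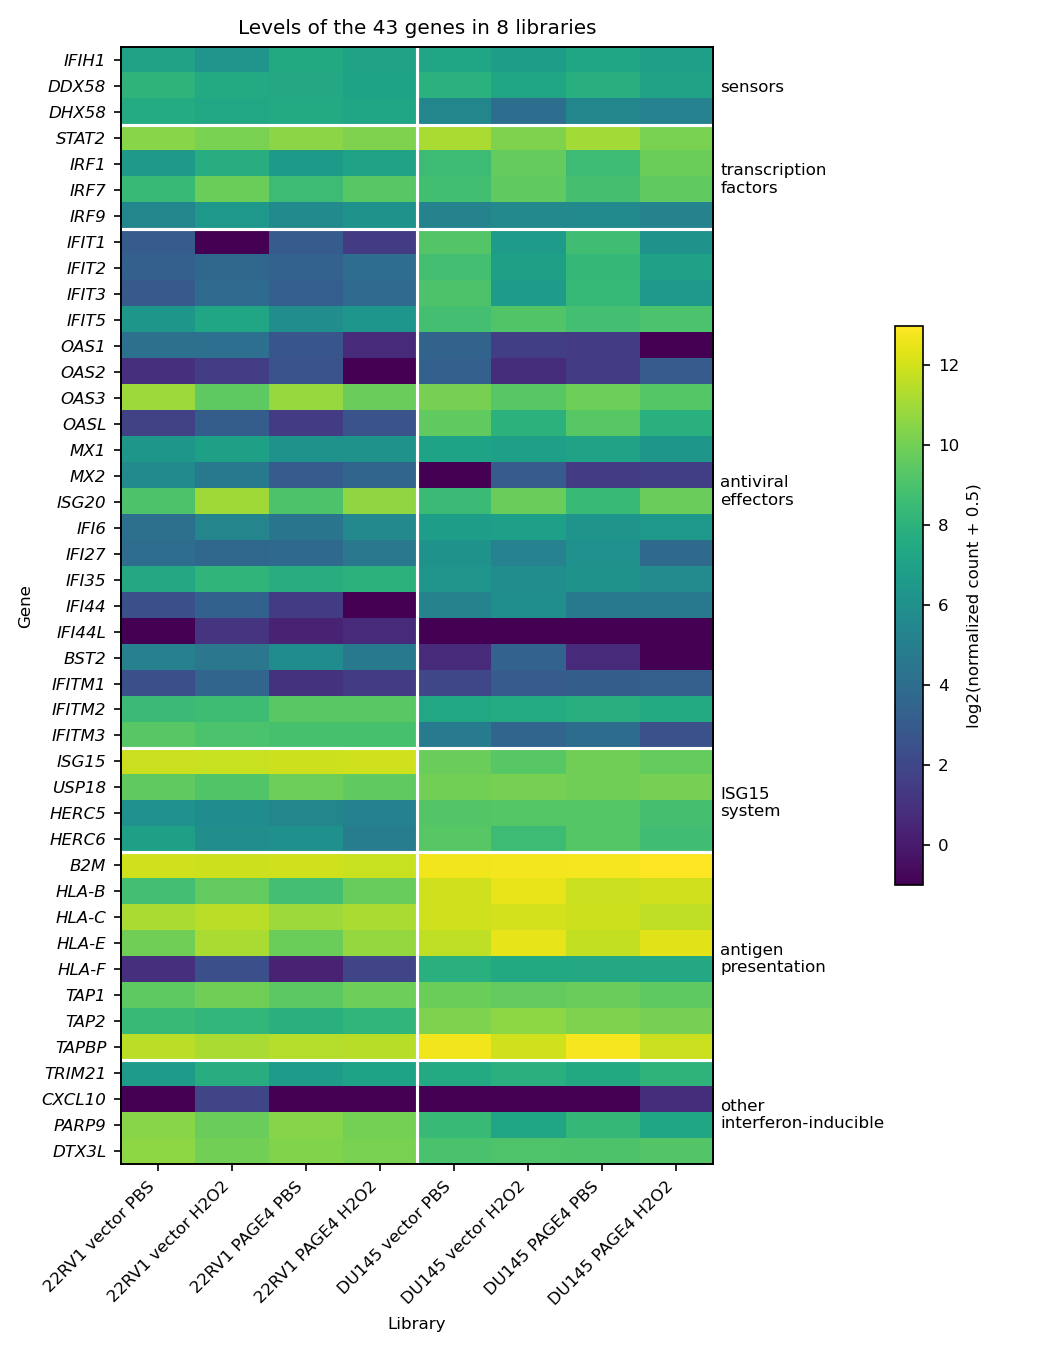
Levels of the 43 genes (rows, grouped by role) in the 8 libraries (columns), coloured by log2 of the normalized count plus 0.5, with 1 library per column. B2M and TAPBP are bright in every library and ISG15 in 22RV1 libraries, IFIT1, IFIT2, IFIT3, OASL and HLA-F are brighter in DU145 libraries, and IFITM3 is brighter in 22RV1 libraries.

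The lines stood far apart in IFIT1, IFIT2, IFIT3, OASL and HLA-F, which were low in 22RV1 cells, and in IFITM3, which was low in DU145 cells. The comparison of 22RV1 with DU145 cells over the 4 pairs of libraries with the same construct and treatment called 30 of the 39 genes tested (76.9%), 11 higher in 22RV1 cells and 19 lower. Of all 22418 genes, 60.5% were called in this comparison, 31.9% higher and 28.5% lower in 22RV1 cells, and the median difference was -0.47 on the log2 scale for the 39 genes and 0.08 for all genes. A gene that passed the filter through 1 line only had to differ, which touches IFIT1, IFIT2, IFIT3, OASL, IFI44 and HLA-F, which had at most 18 reads per library in 22RV1 cells, and OAS1, MX2 and BST2, which had at most 9 in DU145 cells. All of these 9 genes except OAS1 are among the 30 called, so the share called and its split rest partly on them. Their values are given as a description, with no p-value for the difference between the lines. The counts describe these 2 lines and no other.

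Of the 8 class I antigen presentation genes on the list, 7 were lower in 22RV1 cells, HLA-F among them, which passed the filter through DU145 cells. Of 13 other class I presentation genes tested, 6 were higher in 22RV1 cells (PSMB10, PSME1, PSME2, CALR, CANX and TAPBPL, by 0.44 to 1.42 on the log2 scale) and 4 lower. HLA-F, a nonclassical class I heavy chain, had 1.4, 4.84, 0.78 and 3.31 normalized counts in 22RV1 cells and 234, 176, 172 and 169 in DU145 cells, a fitted log2 difference of -6.19. HLA-B, a classical heavy chain, had 435 to 855 against 3653 to 5789, a difference of -2.83 (SE 0.17, adjusted p = 4.25e-06). Neither gene's ranges overlapped between the lines. HLA-C and HLA-E, which binds leader peptides and is read by natural killer cells, differed by -0.67 and -1.58, TAP2 by -2.14, TAPBP by -0.92 and B2M by -0.88 (adjusted p from 1.06e-05 to 0.00147 in edgeR's quasi-likelihood test). TAP1 was the one gene of this group not called, with 686 to 979 in 22RV1 cells and 732 to 924 in DU145 cells.

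The IFIT genes, which encode proteins that bind viral RNA, lie side by side on chromosome 10 between 89283694 and 89421605 (GRCh38) and were all lower in 22RV1 cells. IFIT1 had 0 to 7.8 normalized counts in 22RV1 cells and 68.5 to 608 in DU145 cells, a fitted log2 difference of -6.06. IFIT2, IFIT3 and IFIT5 differed by -4.23, -4.22 and -2.49. OASL, an OAS-like protein that enhances RIG-I signalling, had 2.34 to 8.06 in 22RV1 cells and 234 to 766 in DU145 cells, a fitted difference of -6.54. HERC5, the ligase that attaches ISG15 to its targets, had 67.3, 54, 41.3 and 34.2 against 609, 613, 612 and 468, a difference of -3.57 (SE 0.20, adjusted p = 3.32e-06), and its neighbour HERC6 differed by -3.02. IRF1 was lower as well, at 91.2 to 209 against 375 to 919.7, as were IFI44 (-3.25), IFI6 (-1.71) and TRIM21 (-0.70). The TRIM21 call was lost in 3 of the 4 comparisons that left out 1 pair (adjusted p from 0.0728 to 0.0829), without blocks and with scaling to total counts.

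Other antiviral genes had the opposite order. IFITM3, a membrane protein that blocks virus entry, had 651, 509.7, 473 and 476 normalized counts in 22RV1 cells and 26.2, 11.3, 15 and 4.98 in DU145 cells, a log2 difference of 5.26 (SE 0.31, adjusted p = 4.34e-06). ISG15 had 3606 to 3898 against 648 to 974, a difference of 2.19 (SE 0.12, adjusted p = 2.73e-06). PARP9 and its partner DTX3L, which form a complex acting on DNA damage and interferon signalling, differed by 2.36 and 1.16. IFI35, IFITM2, ISG20 and OAS3 were higher in 22RV1 cells by 1.81, 1.41, 0.82 and 0.61 on the log2 scale. DHX58 (LGP2), which modulates RNA sensing, had 196, 167, 188 and 149 against 42.2, 16.3, 41.5 and 36.1, a difference of 2.41 (SE 0.29, adjusted p = 0.000191). BST2 (tetherin), which holds budding virions on the cell, had 33.7, 22.6, 54.6 and 24.3 against 1.14, 10, 1.15 and 0, and MX2 had 48.4, 25, 7.8 and 11 against 0, 7.52, 2.3 and 2.49, with differences of 3.64 and 2.74 that rest on few reads. ISG15 was thus higher in 22RV1 cells while its ligase HERC5 was lower there, and USP18, which removes ISG15, differed by -0.47 (SE 0.16, adjusted p = 0.0305), a call that was lost in 3 of the 4 comparisons that left out 1 pair and with scaling to total counts.

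**Figure D2:**
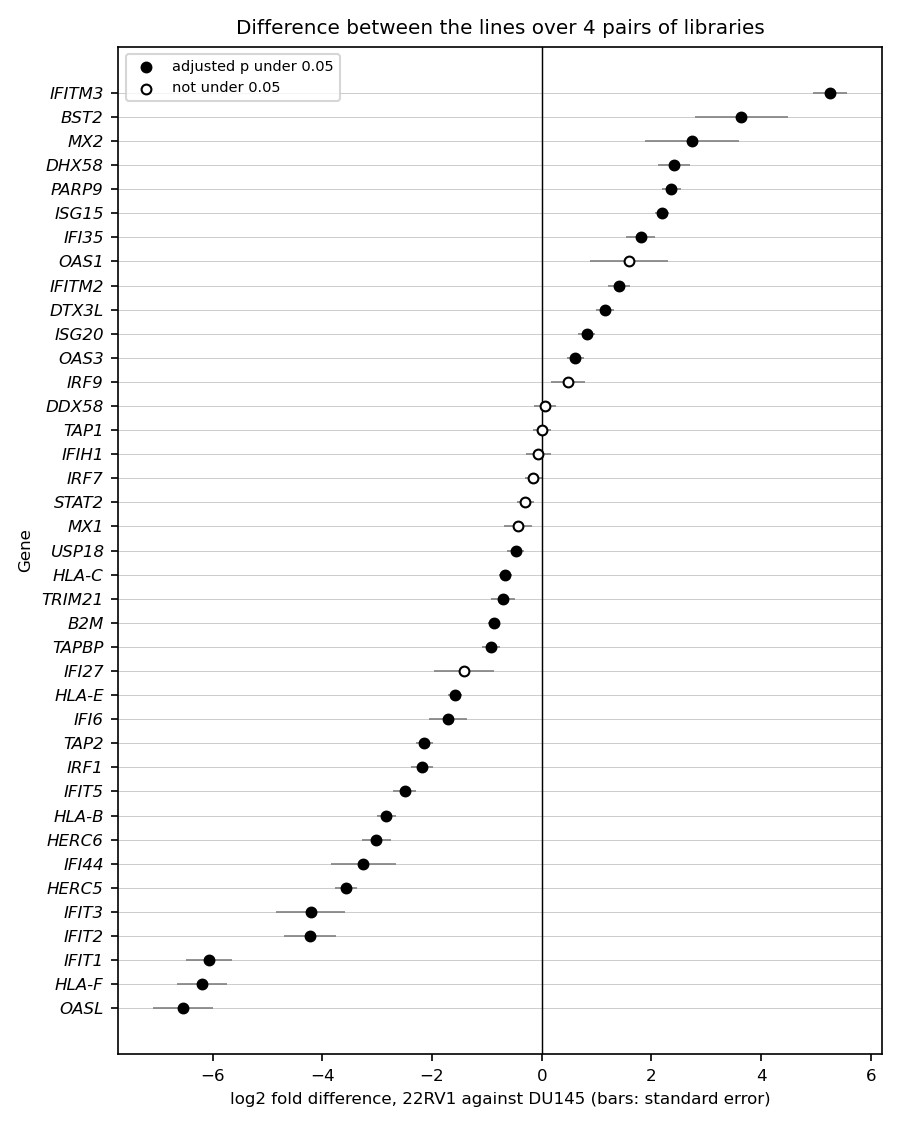
Log2 fold difference of 22RV1 against DU145 cells for the 39 genes tested, with bars for 1 standard error, filled points for an adjusted p under 0.05 and open points otherwise. IFITM3 lies at 5.26 and HERC5 at -3.57, and genes with few reads in 1 line, such as OASL and HLA-F, had to differ.

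With H2O2, the list moved in both directions in each line. Over the 4 pairs of H2O2 and PBS libraries, 11 of 39 genes were called (28.2%), 5 higher and 6 lower, where 20.1% of all genes were called, 8.89% higher and 11.2% lower. In 22RV1 cells alone 17 genes were called (43.6%), 10 higher and 7 lower, against 27.7% of all genes, 12.8% higher and 14.9% lower. In DU145 cells 18 genes were called (46.2%), 5 higher and 13 lower, against 36.7% of all genes, 16.9% higher and 19.8% lower. With scaling to total counts in place of TMM, the split of higher and lower calls was 7 and 4 over the 4 pairs and 10 and 4 in 22RV1 cells. The 39 genes had a median log2 fold change of -0.10 over the 4 pairs (-0.03 for all genes), of 0.09 for 22RV1 cells (0.00 for all genes) and of -0.22 for DU145 cells (-0.03 for all genes). By fold change alone, 6 of 35 genes with a mean of at least 10 normalized counts were over 1.5-fold higher in both 22RV1 pairs and 2 lower, where 7.99% and 9.84% of all genes were. In DU145 cells 4 of 36 were higher and 12 lower, where 11.5% and 16% of all genes were. In single pairs, 17 and 12 genes were over 1.5-fold apart in 22RV1 vector and PAGE4 cells (36.4% and 29.2% of all genes), and 18 and 18 in DU145 vector and PAGE4 cells (41.6% and 42.5%). Vector and PAGE4 cells served as the repeats of a line here, so the p-values measure the spread between these pairs only.

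The transcription factors split. IRF1, a factor induced by interferons and by stress, had 387 and 375 normalized counts in DU145 cells with PBS and 803 and 919.7 with H2O2, a log2 fold change of 1.17 (SE 0.18, adjusted p = 4.88e-05). In 22RV1 cells it had 91.2 and 98.3 with PBS and 209 and 134 with H2O2, a change of 0.84 (SE 0.20, adjusted p = 0.00468). Both H2O2 libraries lay above both PBS libraries in each line, but in 22RV1 cells the change was larger in the vector pair and was 0.43 without it (adjusted p = 0.299). IRF7, which drives the second wave of interferon genes, had 337 and 377 with PBS and 897 and 639.5 with H2O2 in 22RV1 cells, a change of 1.09 (SE 0.16, adjusted p = 5.05e-05). In DU145 cells its values were 427 and 462 and 742 and 765, a change of 0.76 (SE 0.16, adjusted p = 0.00094). STAT2, the signalling subunit of the ISRE-binding complex, went the other way: it had 2313 and 2121 with PBS and 1206 and 1135 with H2O2 in DU145 cells, a change of -0.92 (SE 0.10, adjusted p = 1.41e-06). In 22RV1 cells STAT2 had 1419 and 1479.5 against 1123 and 1251, a smaller change of -0.29 (SE 0.10, adjusted p = 0.0366). This call was lost in DESeq2's Wald test (adjusted p = 0.0647) and with scaling to total counts (-0.16). It was also lost without the 22RV1 vector pair (-0.25) and without either DU145 pair. IRF9 was called in neither line.

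Among the sensors, DDX58 was lower with H2O2 over the 4 pairs, with a log2 fold change of -0.59 (SE 0.17, adjusted p = 0.0461). It had 275 and 173 normalized counts with PBS and 184 and 137 with H2O2 in 22RV1 cells, and 242 and 218 against 148 and 131 in DU145 cells. The values were lower with H2O2 in every pair, but the call was close to the threshold and was lost whenever 1 pair was left out (adjusted p from 0.0594 to 0.16). IFIH1 and DHX58 were not called in either line, with changes between -0.71 and -0.28.

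The antiviral effectors included the lowest and the highest called changes of the list in both lines. IFIT1 had 608 and 414 normalized counts in DU145 cells with PBS and 100.3 and 68.5 with H2O2, a log2 fold change of -2.60 (SE 0.26, adjusted p = 6.46e-07). In 22RV1 cells it had 11 and 10 reads with PBS and 0 and 2 with H2O2. In 22RV1 vector cells the 95% interval of the log2 ratio of IFIT1 had an upper end of -1.13 and no lower end. With the floor of 3 reads put in place of 0 and the PBS reads taken as exact, the fall was 3.19-fold. In 22RV1 PAGE4 cells the log2 ratio was -1.62 (95% interval -5.05 to 0.41). Both intervals cover counting error only. The call in 22RV1 cells (-2.88, SE 0.82, adjusted p = 0.0137) was lost without the vector pair (-1.77, adjusted p = 0.256). OAS3, which makes the 2-5A messenger that activates RNase L, fell in all 4 pairs. It had 1942 and 1805 with PBS and 728 and 868 with H2O2 in 22RV1 cells, a change of -1.24 (SE 0.12, adjusted p = 6.3e-07). In DU145 cells it had 1088 and 940.3 against 642 and 622, a change of -0.68 (SE 0.12, adjusted p = 0.000296). ISG20, an exonuclease that degrades RNA, rose in all 4 pairs instead. It had 538 and 543 with PBS and 2036 and 1618 with H2O2 in 22RV1 cells, a change of 1.75 (SE 0.12, adjusted p = 1.84e-08). In DU145 cells it had 366 and 357 against 884 and 875, a change of 1.28 (SE 0.13, adjusted p = 7.4e-07). IFIT1, OAS3 and ISG20 all hold the ISRE letters in the stretches printed above. Of the 13 genes lower in DU145 cells 11 had a promoter window and 8 of these held the letters, as did 1 of 3 genes higher there with a window, 4 of 8 higher and 3 of 6 lower in 22RV1 cells, beside 23 of 34 on the whole list.

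Further effectors fell in DU145 cells. IFIT3, a partner of IFIT1, had 527 and 324 normalized counts with PBS and 102 and 85.9 with H2O2, a log2 fold change of -2.15 (SE 0.25, adjusted p = 3.15e-06). IFIT2 had 439 and 313 against 124 and 128, a change of -1.56 (SE 0.25, adjusted p = 8.19e-05). OASL had 766 and 648 against 255 and 234, a change of -1.53 (SE 0.19, adjusted p = 5.88e-06). For these 3 genes both H2O2 libraries were under both PBS libraries. IFI27, a mitochondrial protein strongly induced by interferon, had 70.7 and 66.8 with PBS and 36.4 and 13.7 with H2O2, and its change of -1.54 (SE 0.50, adjusted p = 0.0225) lost the call without the PAGE4 pair (-0.96, adjusted p = 0.379). IFITM3 had 23 and 13 reads with PBS and 9 and 4 with H2O2, and its change of -1.33 (SE 0.44, adjusted p = 0.0252) was lost without either DU145 pair. In 22RV1 cells, IFIT5 and IFI6, which is a mitochondrial and endoplasmic reticulum protein, rose by 0.69 and 1.18 on the log2 scale. The IFIT5 call was lost in DESeq2's Wald test (adjusted p = 0.0587) and without the vector pair (0.51, adjusted p = 0.31). IFI6 had 17.5 and 21.1 normalized counts with PBS and 40.3 and 47.5 with H2O2 there, and was called (adjusted p = 0.0204). The IFI6 call was lost in DESeq2's Wald test (adjusted p = 0.0938). Leaving out the 22RV1 vector pair (1.16) or the 22RV1 PAGE4 pair (1.18) also lost it.

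**Figure D3:**
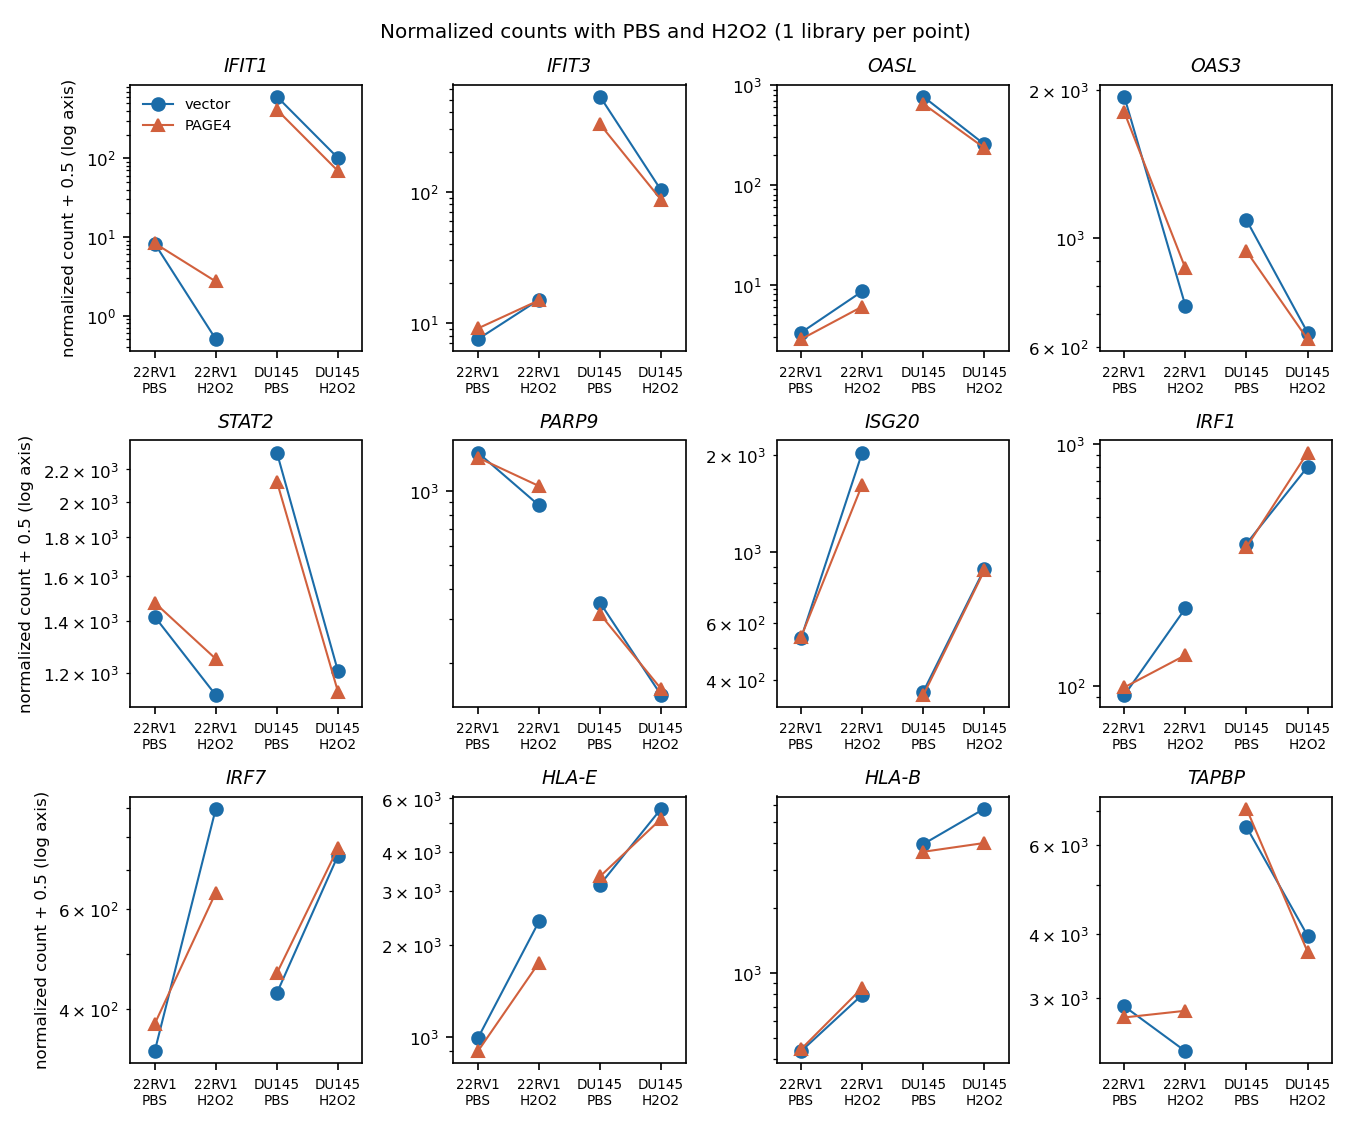
Normalized counts plus 0.5 (log axis, different in each panel) of 12 genes with PBS and H2O2 in each line, with circles for vector cells, triangles for PAGE4 cells and 1 library per point. ISG20, IRF1, IRF7, HLA-E and HLA-B rise with H2O2 in both lines, OAS3, STAT2, PARP9 and IFIT1 fall in both, and IFIT3 and OASL fall in DU145 cells.

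In the ISG15 system HERC6 fell in both lines. It had 122 and 64 normalized counts with PBS and 58.9 and 28.7 with H2O2 in 22RV1 cells, a log2 fold change of -1.09 (SE 0.22, adjusted p = 0.00138). In DU145 cells it had 642 and 634 against 380.0 and 412, a change of -0.69 (SE 0.17, adjusted p = 0.0039). Both DU145 calls of HERC6 and IFITM3 were lost when either DU145 pair was left out (adjusted p from 0.0679 to 0.149). The modifier ISG15 itself had 3679.9 and 3809 against 3606 and 3898 in 22RV1 cells (change 0.00, not called) and 869 and 974 against 648 and 820.2 in DU145 cells, where its change of -0.33 (SE 0.10, adjusted p = 0.0128) was called but was lost without the vector pair (-0.25, adjusted p = 0.294). HERC5 was called in neither line. USP18 had 760.4 and 960.1 with PBS and 583 and 763 with H2O2 in 22RV1 cells, a change of -0.36 (SE 0.12, adjusted p = 0.0286) that was lost in DESeq2's Wald test, with scaling to total counts, without the 22RV1 vector pair and without either DU145 pair (adjusted p from 0.0504 to 0.154), and 1001 and 989.9 against 1099 and 1110.2 in DU145 cells.

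Antigen presentation moved unevenly. HLA-E had 991 and 898 normalized counts with PBS and 2381 and 1749 with H2O2 in 22RV1 cells, a log2 fold change of 1.12 (SE 0.10, adjusted p = 2.16e-07). In DU145 cells it had 3141 and 3342 against 5558 and 5152, a change of 0.72 (SE 0.09, adjusted p = 1.03e-05). HLA-E was thus higher with H2O2 in all 4 pairs. HLA-B had 435 and 445 with PBS and 794 and 855 with H2O2 in 22RV1 cells, a change of 0.90 (SE 0.11, adjusted p = 9.18e-06). In DU145 cells it had 3965 and 3653 against 5789 and 4012, a change of 0.34 (SE 0.10, adjusted p = 0.0114) that came mainly from the vector pair and was 0.14 without it (adjusted p = 0.634). B2M, the light chain they share, had 3981 and 4042 against 3877 and 3514 in 22RV1 cells and 6525 and 7022 against 6846 and 7989 in DU145 cells, and was called in neither line (adjusted p = 0.3 and 0.235). TAPBP had 6502 and 7065 with PBS and 3975 and 3695 with H2O2 in DU145 cells, a change of -0.82 (SE 0.09, adjusted p = 2.4e-06), and 2886 and 2745 against 2356 and 2829 in 22RV1 cells, where it was not called. TAP1 had 737 and 686 with PBS and 979 and 938 with H2O2 in 22RV1 cells, a change of 0.43 (SE 0.12, adjusted p = 0.0108), and 924 and 862 against 779 and 732 in DU145 cells, where it was not called. HLA-C rose slightly in 22RV1 cells, from 2324 and 1944 to 2915 and 2346 (0.30, SE 0.09, adjusted p = 0.0188), a call lost without the vector pair (0.26, adjusted p = 0.134).

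Of the remaining genes, PARP9 passed the test and DTX3L did not in DU145 cells, although their starts adjoin. PARP9 had 350.3 and 315 normalized counts with PBS and 147 and 156 with H2O2 in DU145 cells, a log2 fold change of -1.14 (SE 0.16, adjusted p = 2.36e-05). In 22RV1 cells it had 1437 and 1371 against 875 and 1049, a change of -0.55 (SE 0.13, adjusted p = 0.00368) that was lost without the vector pair (-0.40, adjusted p = 0.108). DTX3L had 503 and 537 against 566 and 594 in DU145 cells, a change of 0.16 (SE 0.14, adjusted p = 0.414). In 22RV1 cells DTX3L had 1539.7 and 1263 against 1014 and 1133, a change of -0.38 (SE 0.13, adjusted p = 0.0303), and -0.17 without the vector pair (adjusted p = 0.579). The difference between the PARP9 and DTX3L changes was not tested. TRIM21, a cytosolic antibody receptor, rose in 22RV1 cells by 0.77 (adjusted p = 0.018), a call lost without the vector pair (0.45, adjusted p = 0.378).

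The H2O2 response differed between the lines for 10 of the 39 genes (25.6%), against 16.3% of all genes. For 8 of them the effect in 22RV1 cells was the higher one (8.76% of all genes), and for OAS3 and USP18 it was the lower one (7.54%). IFIT3 had 7.01 and 8.58 normalized counts with PBS and 14.5 and 14.4 with H2O2 in 22RV1 cells beside its fall in DU145 cells, and the effects differed by 3.04 (SE 0.50, adjusted p = 0.000446) on the log2 scale. IFIT2 had 9.12 and 10.1 against 12.9 and 15.5 in 22RV1 cells, with a difference of 2.11 (SE 0.50, adjusted p = 0.00699). OASL had 4 and 3 reads against 10 and 5 in 22RV1 cells, with a difference of 2.90 (SE 0.62, adjusted p = 0.00366). The 22RV1 side of these 3 differences rests on at most 18 reads per library. For IFIT1 the difference was not called (-0.29, SE 0.72, adjusted p = 0.859). Differences in genes with at least 500 reads per library were those of OAS3 (-0.56, SE 0.17, adjusted p = 0.0333), USP18 (-0.51, SE 0.16, adjusted p = 0.0427), TAPBP (0.70, SE 0.13, adjusted p = 0.00147), TAP1 (0.67, SE 0.17, adjusted p = 0.0107), STAT2 (0.63, SE 0.14, adjusted p = 0.00483), HLA-B (0.56, SE 0.15, adjusted p = 0.0145) and HLA-C (0.40, SE 0.13, adjusted p = 0.0405). That of HLA-B was 0.36 without the DU145 PAGE4 pair. The HLA-C call was lost with DESeq2 size factors in edgeR (adjusted p = 0.0579) and in DESeq2's Wald test (adjusted p = 0.0862). Without a filter on low counts it was lost as well. Scaling to total counts in edgeR lost the USP18 and OAS3 calls (adjusted p = 0.0765 and 0.0535). DESeq2's Wald test also lost that of USP18 (adjusted p = 0.0605). Leaving out the DU145 PAGE4 pair gave 0.26 for HLA-C, -0.48 for OAS3 and -0.49 for USP18. With scaling to total counts 12 genes were called, all with the higher effect in 22RV1 cells. The 10 calls became 5 when either DU145 pair was left out.

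**Figure D4:**
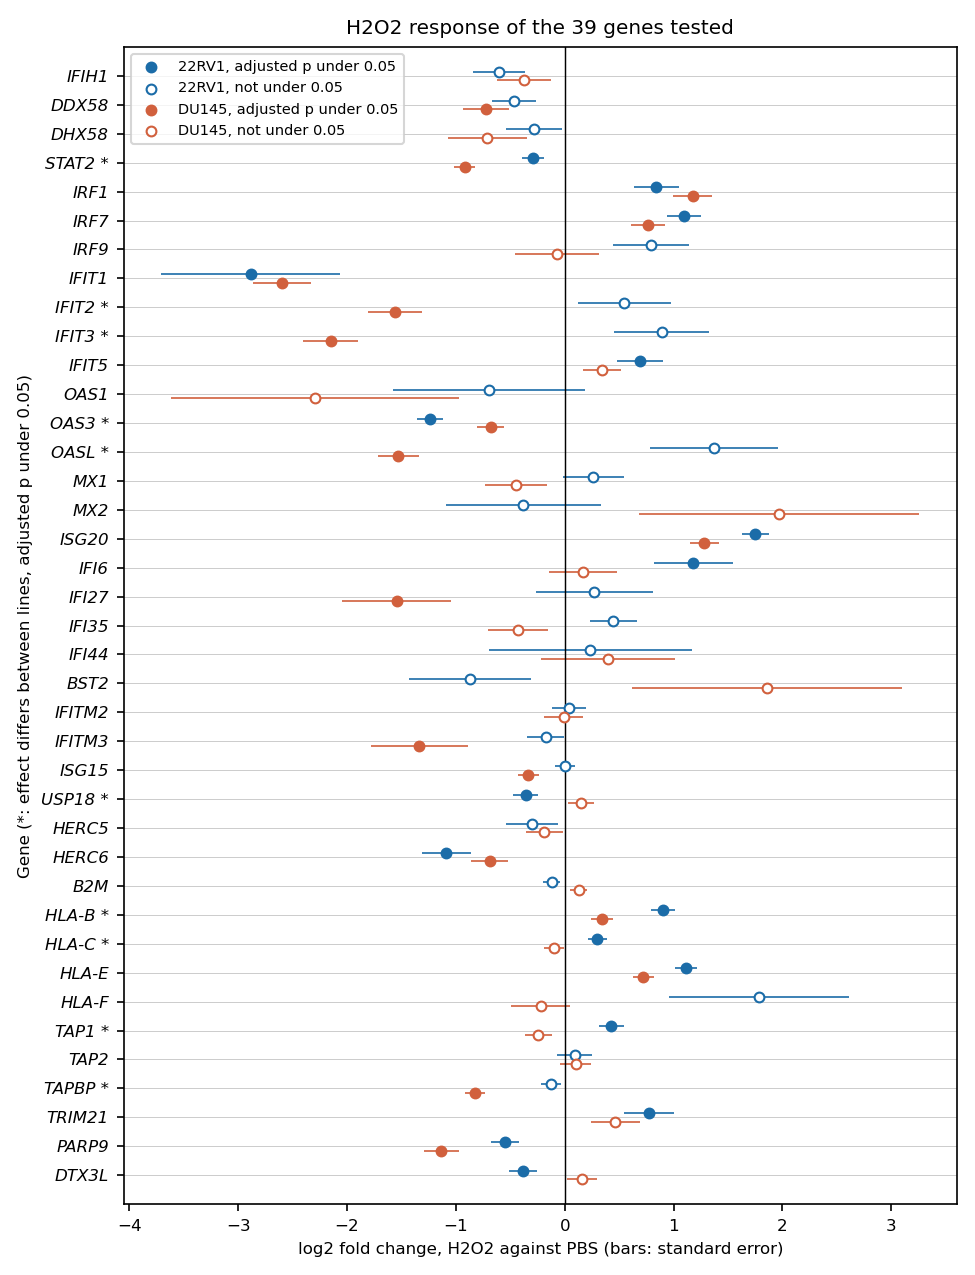
Log2 fold change of H2O2 against PBS in 22RV1 cells (blue) and DU145 cells (orange) for the 39 genes tested, with bars for 1 standard error, filled points for an adjusted p under 0.05 and a star where the effect differed between the lines. IFIT1 is lowest in both lines, ISG20 is highest among the called genes in both, and IFIT3 is at 0.89 in 22RV1 cells and -2.15 in DU145 cells.

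Few of these genes, and few of all genes, were called between PAGE4 and vector cells. Over the 4 pairs of PAGE4 and vector libraries, 0 of the 39 genes were called in edgeR's quasi-likelihood test and 0 in DESeq2's Wald test, while 9 had an unadjusted p under 0.05, and 0.174% of all genes were called. The lowest adjusted p was 0.362, for HLA-C, with a log2 fold change of -0.24. The median log2 fold change was -0.12 for the 39 genes and -0.01 for all genes, and 28 of the 39 were below 0. These comparisons use the same 8 libraries as those of H2O2.

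In 22RV1 cells 2 of the 39 genes were called (5.13%), 1 higher and 1 lower, against 4.28% of all genes, 2.15% higher and 2.14% lower. IFITM2, an entry-blocking membrane protein, had 362 and 389.5 normalized counts in vector cells with PBS and H2O2 and 676 and 667 in PAGE4 cells, a log2 fold change of 0.84 (SE 0.16, adjusted p = 0.00411). HERC6 had 122 and 58.9 in vector cells and 64 and 28.7 in PAGE4 cells, a change of -0.97 (SE 0.22, adjusted p = 0.0179) that lost its call without the pair treated with PBS (adjusted p = 0.082). For IFITM2 the PAGE4 and vector values did not overlap. For HERC6 they did, since PAGE4 cells with PBS (64) lay above vector cells with H2O2 (58.9). In single pairs of libraries, a fold change over 1.5 in both 22RV1 pairs, with a mean of at least 10 normalized counts, was seen for IFITM2 among higher genes, and for OAS1, MX2, HERC5 and HERC6 among lower ones. That is 1 higher and 4 lower of 35 genes, where 2.47% of all genes were higher and 4.13% lower by this rule. Counting single pairs, 7 genes were over 1.5-fold apart with PBS and 11 with H2O2 in 22RV1 cells (18% and 21.6% of all genes). MX2 had 69 and 10 reads in vector and PAGE4 cells with PBS and 31 and 10 with H2O2, with log2 ratios of -2.56 (95% interval -3.76 to -1.67) and -1.14 (95% interval -2.37 to -0.11). OAS1 had 25 and 8 reads with PBS and 21 and 1 with H2O2. HERC5 had 67.3 and 41.3 normalized counts with PBS and 54 and 34.2 with H2O2. These 3 genes did not pass the test (adjusted p = 0.178, 0.222 and 0.146 in edgeR's quasi-likelihood test), and the intervals cover counting error only.

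In DU145 cells 0 of the 39 genes were called in edgeR's quasi-likelihood test and 0 in DESeq2's Wald test, while 4 had an unadjusted p under 0.05, and 0.17% of all genes were called. IFI44 and IFITM3 were over 1.5-fold lower with PAGE4 in both pairs, 2 of 36 genes, where 2.66% of all genes were lower by this rule. In single pairs 3 genes were over 1.5-fold apart with PBS and 4 with H2O2 (17% and 17.1% of all genes), and none was over 1.5-fold higher in both, where 2.07% of all genes were. IFI44, a cytoplasmic protein of the interferon response, had 33 and 21 reads in vector and PAGE4 cells with PBS and 49 and 20 with H2O2. Its log2 ratios were -0.63 (95% interval -1.50 to 0.19) and -1.29 (95% interval -2.13 to -0.53), so counting error alone covers 0 in the first pair. In a test of the difference between the lines, 0 of the 39 genes were called, 7 had an unadjusted p under 0.05 and DESeq2's Wald test called 0, against 1.84% of all genes in edgeR. The effects of PAGE4 on HERC6 differed by -1.01 (SE 0.28, adjusted p = 0.0821) between the lines.

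**Figure D5:**
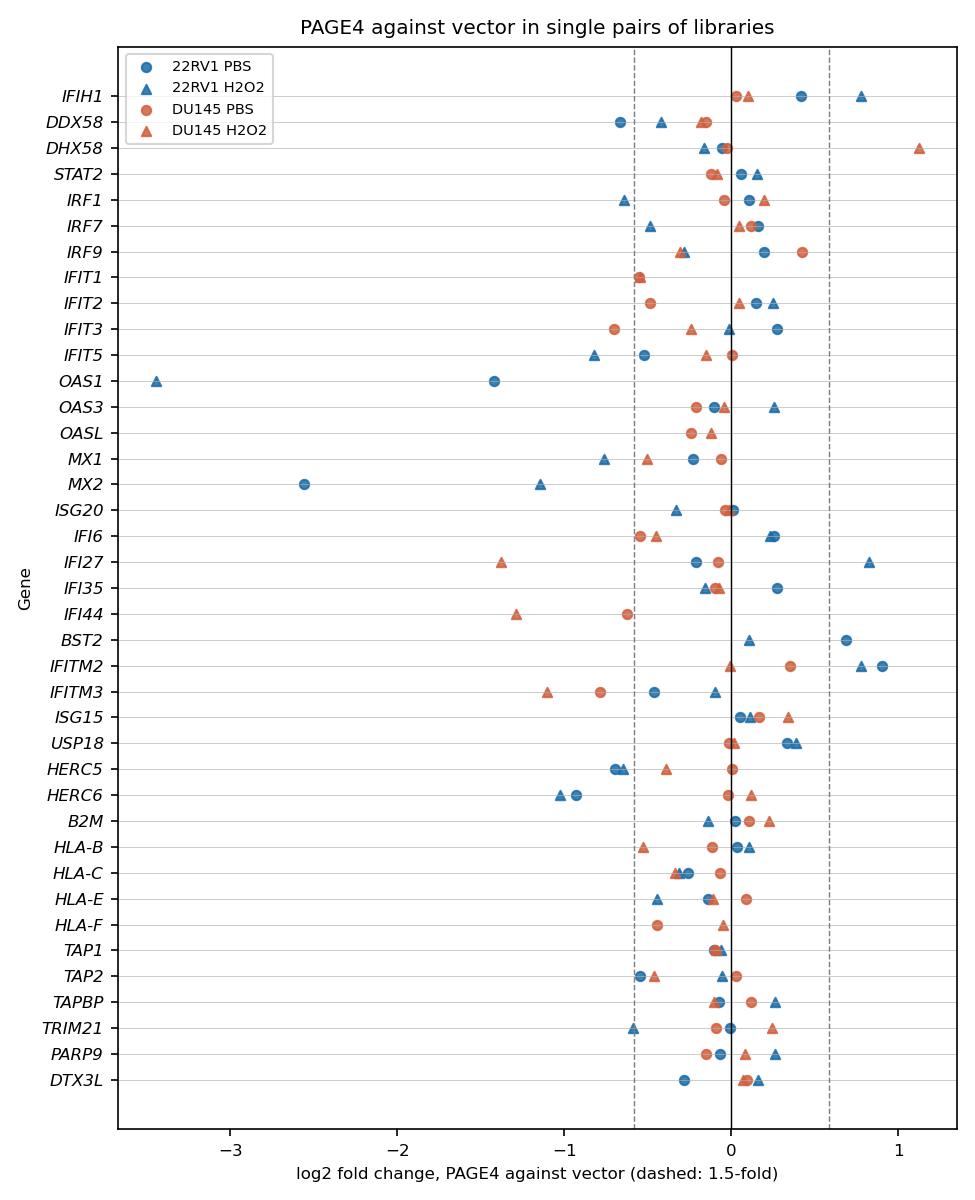
Log2 fold change of PAGE4 against vector cells in each of the 4 pairs of libraries, for genes with a mean of at least 10 normalized counts in the line, with dashed lines at 1.5-fold and no replicate behind any point. Most points lie between the dashed lines, and IFITM2 lies to the right and HERC6 to the left of them in both 22RV1 pairs.

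Beyond the 43 genes, a list of 89 other genes of the pathway was examined, of which 70 passed the filter. Over the 4 pairs of H2O2 and PBS libraries, 9 were higher and 13 lower, where 8.89% and 11.2% of all genes were, with a median log2 fold change of -0.09 (-0.03 for all genes). By line, the calls were 18 higher and 15 lower for 22RV1 cells, against 13 higher and 20 lower for DU145 cells, where all genes had 12.8% and 14.9%, and 16.9% and 19.8%. Among 13 sensors and adaptors, MB21D1 (cGAS, which senses cytosolic DNA), IFI16 and the kinase TBK1 rose and MAVS, the adaptor of RIG-I and MDA5, fell by 0.59. MB21D1 was high in DU145 cells alone, with 1137 and 1204 against 2215 and 2229, and had at most 11 reads in 22RV1 cells. Among 8 negative regulators 3 rose and 2 fell. SOCS1, which inhibits JAK kinases, had 0 and 2 reads with PBS and 30 and 10 with H2O2 in 22RV1 cells, and 0 and 0 against 9 and 20 in DU145 cells (adjusted p = 0.0113). PTPN2, a phosphatase of JAKs and STATs, rose by 0.43, and PIAS1 fell by 0.43. Among 24 other interferon-stimulated genes 3 rose and 3 fell, with changes of 1.49 (SE 0.29, adjusted p = 0.011) for CD274 (PD-L1), 0.74 (SE 0.13, adjusted p = 0.00768) for PARP12 and -0.76 (SE 0.10, adjusted p = 0.00375) for SAMHD1. Among 13 other genes of class I presentation 0 rose and 6 fell, including CALR, a chaperone of the peptide-loading complex (-0.73, SE 0.12, adjusted p = 0.00731), and the proteasome activator subunits PSME2 (-0.42) and PSME1 (-0.37). Between the lines, 19 of the 70 were higher in 22RV1 cells and 32 lower, where 31.9% and 28.5% of all genes were, and JAK1 was picked after its values were seen. This kinase of interferon receptors had 201, 606, 237 and 423 normalized counts in 22RV1 cells and 3561, 3516, 3602 and 3633 in DU145 cells (-3.42, SE 0.27, adjusted p = 1.81e-05). The values did not overlap between the lines. With H2O2, JAK1 changed by 1.23 in 22RV1 cells (adjusted p = 5.26e-06). Between PAGE4 and vector cells, 0 of the 70 genes were called over the 4 pairs in edgeR's quasi-likelihood test and 0 in DESeq2's Wald test, with 7 at an unadjusted p under 0.05. LAMP3, a lysosomal membrane protein, was lower with PAGE4 in 22RV1 cells (-0.82, SE 0.20, adjusted p = 0.0246), a call that DESeq2's Wald test did not make.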

How the data were processed

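RNA-seq read counts were deposited for 8 libraries, 1 for each condition. The deposited counts are the authors' raw counts per gene, unnormalized, from reads aligned with HISAT2 2.1.0 and counted with featureCounts 1.6.0 on GRCh38 (hg38), per the submitters' processing notes and the study's methods. The annotation release, strand setting and treatment of reads with several matches are not given in the sources used here. Counts were tested with edgeR 4.0.16 (R 4.3.3): TMM over all 8 libraries so that levels compare between lines, filterByExpr, and the quasi-likelihood F test with Benjamini-Hochberg adjustment over 22418 genes, threshold 0.05. Pairs of libraries were the blocks (3 residual degrees of freedom over 4 pairs, 2 for effects by line). The study's own rule of a 1.5-fold change was applied to single pairs as log2(normalized count + 0.5), with exact Clopper-Pearson 95% intervals. Intervals and the floor of 3 reads cover counting error only. The fits were tested on simulated data. DESeq2 1.42.0, other scalings, filters, blocks and leaving out each pair were the alternatives. Library totals of 25482984 to 43310401 set the precision of low genes. RPKM used exon lengths from GENCODE 44. Promoters are from RefSeq. Values in every library are given for genes called in any fit (where over 12 are called in 1 fit, the 6 highest and 6 lowest) and for genes past 1.5-fold in both pairs of a line, with further genes fixed by name, and other genes by range or count. The 43 genes and the other lists were chosen with earlier results of these data known. Nothing states that libraries came from separate cultures beyond the 4 transduced populations, so p-values measure the spread between these libraries only. Some listed genes are not reported here.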

Additional observations from a re-analysis of the deposited data

Results flagged for a closer look

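The effect of H2O2 differed between 22RV1 and DU145 cells in a test of the difference itself (edgeR's quasi-likelihood test, adjusted p under 0.05) for 10 of the 39 genes, which is why they are given here. The effect in 22RV1 cells minus that in DU145 cells, on the log2 scale, was 3.04 for IFIT3, 2.90 for OASL, 2.11 for IFIT2, 0.70 for TAPBP, 0.67 for TAP1, 0.63 for STAT2, 0.56 for HLA-B, 0.40 for HLA-C, -0.51 for USP18 and -0.56 for OAS3. IFIT3, OASL and IFIT2 had 3 to 18 reads per library in 22RV1 cells, and the other 7 genes had at least 500 reads per library in both lines. The calls of HLA-C and USP18 were lost in DESeq2's Wald test, and those of USP18 and OAS3 with scaling to total counts. The stress gene HMOX1 had 106 and 189.5 normalized counts with PBS and 4244 and 2207 with H2O2 in 22RV1 vector and PAGE4 cells, against 2713 and 2672 and 3737 and 3162 in DU145 cells, and its part in these differences was not tested.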

How the results depend on the processing

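Among single genes, 663 of 744 values under an alternative kept their direction and side of the threshold, 81 lost the call and 0 reversed. Counts of called genes outside 1.5 times the reported one were few. DESeq2's Wald test called 11 genes for H2O2 in 22RV1 cells in place of 17. Without a filter on low counts, PAGE4 had 1 call over the 4 pairs (IFITM2) and 1 for the difference between lines (HERC6), in place of 0. Scaling to total counts moved the median of all genes from 0.08 to 0.28 between the lines and from 0.00 to 0.12 for H2O2 in 22RV1 cells. When 1 pair was left out, which rests the effect in its line on a lone pair assumed to vary like the others, the calls ranged from 8 to 11 for H2O2 over the 4 pairs, 7 to 16 in 22RV1 cells (7 without the vector pair), 13 to 20 in DU145 cells, 5 to 13 for their difference, 27 to 30 between the lines, 2 to 3 for PAGE4 in 22RV1 cells, 0 to 1 in DU145 cells (HLA-B, without either 22RV1 pair), and 0 to 0 for PAGE4 over the 4 pairs and for its difference between lines. The cause of these moves was not tested.

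By fold change in single pairs, counts of genes over 1.5-fold were 17, 12, 18 and 18 for H2O2 in 22RV1 vector, 22RV1 PAGE4, DU145 vector and DU145 PAGE4 cells, and over 2-fold 9, 6, 9 and 9. For PAGE4 they were 7 and 11 in 22RV1 cells with PBS and H2O2, and 3 and 4 in DU145 cells. Over 2-fold these became 2, 3 and 0, with 4 unmoved in DU145 cells with H2O2. A minimum of 50 normalized counts gave 6 for H2O2 in 22RV1 PAGE4 cells, and 3, 7, 1 and 0 for PAGE4. No minimum gave 11 for PAGE4 in 22RV1 cells with PBS, and 7 and 9 in DU145 cells. Stricter limits leave fewer genes by construction. Depth limits the genes at a few reads in 1 line, such as IFIT1 and HLA-F in 22RV1 cells and MX2 and BST2 in DU145 cells.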
